A study of Mus musculus with 3 samples.

Results

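The cells described here are the vascular endothelial cells of the mouse limbus, the vessel-bearing rim around the avascular cornea. They were chosen by marker genes from all barcodes in which 500 or more genes were detected and mitochondrial genes held no more than 20% of UMIs (unique molecular identifiers, 1 per captured RNA molecule). A barcode was a member if at least 3 of 9 endothelial genes (Pecam1, Cdh5, Kdr, Plvap, Egfl7, Emcn, Tie1, Esam and Cldn5) had a UMI, fewer than 3 of 6 mural genes (Rgs5, Notch3, Myh11, Kcnj8, Abcc9 and Higd1b) had one, and Krt5, Krt14 and Krt12 together held under 100 of every 10000 UMIs. The rule found 121 members among 23863 passing barcodes. Cornea and limbus of wild-type (wt) mice were profiled as 3 droplet libraries, each from 1 mouse by the design text (the protocol speaks of corneas in the plural): uninjured, NM injured with saline, and NM injured with losartan. NM stands for nitrogen mustard, which alkylates and so damages DNA. Losartan is a blocker of the type 1 receptor for angiotensin II. The sources used here do not give strain, age, time after injury, dose or route. Both injured groups carry NM, so losartan without injury was not measured, and with 1 library per group no difference has a replicate check.

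Endothelial cells line blood and lymphatic vessels. Arterial, capillary and venous cells express different genes, and venous cells of small vessels are the main site where selectins catch passing leukocytes. The normal cornea has no vessels, so the limbal loops are its nearest blood supply and the place from which new vessels sprout into an injured cornea. Endothelial cells also carry the angiotensin-converting enzyme Ace on their surface, which makes angiotensin II, the ligand of the receptor that losartan blocks.

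The rule took 56 uninjured, 18 saline and 47 losartan barcodes, but in the injured libraries many of them carried the genes of other cell types. The values of the rule genes chose the members, so they are given as a description. Of the 4 uninjured members with under 10 rule-gene UMIs per 10000, all 4 had UMIs of at least 3 of 7 stromal genes (Kera, Lum, Dcn, Col1a1, Col1a2, Col3a1 and Pdgfra). Among the 22 such losartan members, 19 did. In the saline library 5 of the 6 such members had 9 or more of 11 epithelial genes and 35651 to 188744 UMIs each. Those 32 barcodes held 9.94%, 93.1% and 64.8% of the members' UMIs in the uninjured, saline and losartan libraries. The values below therefore come from the 89 members with at least 10 rule-gene UMIs per 10000, called marker-rich here, a threshold chosen after the data were seen. Every member has at least 3 rule-gene UMIs, so a shallow cell passes this threshold through its depth alone. Saline cells with 3 rule-gene UMIs and 1332 to 2707 UMIs in all passed it. The members left out had at least 7856, 11079 and 5024 UMIs in the uninjured, saline and losartan libraries. For shallow cells the threshold is therefore no check of cell type. There were 52 uninjured, 12 saline and 25 losartan marker-rich cells.

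**Figure D1:**
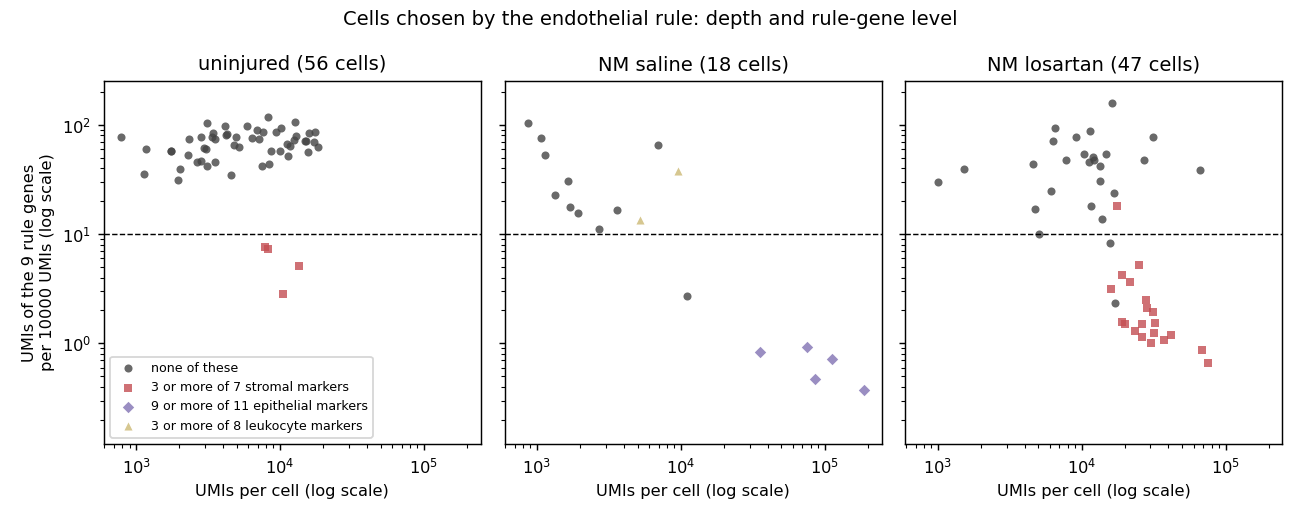
Each point is a member of the rule, with its total UMIs on the horizontal axis and its rule-gene UMIs per 10000 on the vertical axis, both on log scales; marker shapes show UMIs of other cell types' genes and the dashed line is at 10. Marker-rich cells lie on or above the line (52, 12 and 25), and the points under it are mostly deep barcodes with stromal or epithelial genes.

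At the edge of the marker-rich set, the nearest cells below had 7.64 (uninjured), 8.26 and 9.95 (losartan) rule-gene UMIs per 10000, and the nearest above had 11.1 and 13.6 (saline) and 13.8 (losartan). At the edge of the rule itself, 51 uninjured, 55 saline and 109 losartan barcodes had exactly 2 of the rule genes and lay just outside, while 6, 11 and 25 had exactly 3 and lay just inside. Marker-rich depth differed between libraries. The median was 5042 UMIs per cell (783 to 18442) in uninjured, 1816.5 (862 to 9579) in saline and 11563 (1007 to 66602) in losartan cells. The summed cells gave 364763, 37660 and 347606 UMIs, so 1 UMI was worth 26.6 CPM (summed UMIs of a gene scaled to a common library total) in the saline library and single saline genes rest on few molecules. The deepest cell held 5.06%, 25.4% and 19.2% of the marker-rich UMIs in the uninjured, saline and losartan libraries. The deepest saline cell, with 9579 UMIs, had 7 of 8 leukocyte genes.

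Barcode sequences shared between libraries numbered 21 (uninjured and saline), 28 (uninjured and losartan) and 7 (saline and losartan), and none belonged to a member. Of the 12 saline marker-rich cells, 1 with 9579 UMIs had 7 of 8 leukocyte genes and another with 5163 UMIs had 3. The 14 neutrophil marker genes summed to 30138 CPM in the saline marker-rich cells, all 14 with a UMI, against 13.7 CPM in the uninjured (1 of 14) and 94.9 CPM in the losartan cells (4 of 14). The 14 epithelial marker genes summed to 2467 CPM in the uninjured, 478 in the saline and 538 in the losartan cells, and the 14 keratocyte and fibroblast genes to 121, 2390 and 262 CPM, in saline from 2 genes. Mitochondrial UMIs were 1.61%, 1.29% and 1.72% of the median cell. The macrophage and dendritic list summed to 96, 849.7 and 51.8, the T and NK list to 16.4, 0 and 0, the Schwann list to 16.4, 0 and 2.88, the melanocyte list to 5.48, 0 and 8.63, the platelet and red cell list to 11, 186 and 31.6, the corneal endothelium list to 803, 1301 and 705, the mural list to 244, 159 and 1254 and the pan-leukocyte list to 299, 5417 and 596 CPM in the uninjured, saline and losartan cells. In the losartan cells the neutrophil genes Retnlg, Csf3r and Il1b were at 0. The part of these other cells' RNA in the saline values was not tested beyond leaving out those 2 cells.

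Endothelial cells were a small fraction of every library. Members of the rule made up 0.446% (exact 95% interval 0.337 to 0.578) of passing barcodes from the uninjured cornea, 0.293% (0.174 to 0.463) with saline and 0.911% (0.67 to 1.21) with losartan. Counted as marker-rich cells, the shares were 0.414% (0.309 to 0.542), 0.196% (0.101 to 0.341) and 0.484% (0.314 to 0.714). The saline share was lowest by both counts. Its interval overlapped the uninjured one in both counts, and the losartan one only among marker-rich cells. Mural cells, the pericytes and smooth muscle around the same vessels, numbered 103, 10 and 47. All intervals cover counting error only, shares depend on how each tissue came apart, and the large leukocyte fraction of the injured libraries enters the denominators.

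Genes outside the rule matched the endothelial label better in the uninjured and losartan marker-rich cells than in the saline ones. Of 10 endothelial genes that the rule did not use, 2 or more had a UMI in 49 of 52 uninjured, 12 of 12 saline and 23 of 25 losartan cells. The receptor phosphatase Ptprb had a UMI in 92.3%, 83.3% and 80.0% of them, against 0.211%, 0.263% and 0.424% of a class that should lack it (uninjured epithelium, median 12919 UMIs; saline and losartan leukocytes, medians 4321.5 and 2885 UMIs). The VEGF receptor Flt1 had one in 80.8%, 66.7% and 80.0% (background 0.696%, 2.08% and 2.28%), and Ace in 26.9%, 16.7% and 28% (background 0.115%, 0.0526% and 0.0529%). Robo4 and Tek had a UMI in 31 and 30 of 52 uninjured and 15 and 16 of 25 losartan cells, but each in 1 of 12 saline cells. Sox18 had one in 27 uninjured, 0 saline and 8 losartan cells, Icam2 in 27, 2 and 15 and Cd34 in 38, 3 and 22. The transcription factor Erg was seen in 69.2%, 25% and 92% (background 0.564%, 5.76% and 1.85%), lowest in the shallow saline cells. Fli1, another ETS factor, is also a leukocyte gene: its background share was 39.6% and 41.9% in the injured libraries, so its share there (66.7% and 64%) says less. It is among the 10 genes, so it also enters the counts of cells with 2 or more.

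The uninjured cells held genes of several vessel segment lists, mostly in the same cells, and a few were lymphatic. With each cell thinned to 1000 UMIs, at least 2 genes of the arterial list were found in 26 of 51 uninjured cells, of the venous list in 29, of the capillary list in 22 and of the lymphatic list in 8. The same lists reached 1.16%, 4.69%, 2.34% and 0.217% of thinned uninjured epithelial cells. In the losartan library the numbers were 1, 5, 3 and 1 of 25 cells, and in the saline library 1, 2, 3 and 3 of 11. At full depth 44, 48, 45 and 20 of 52 uninjured cells and 19, 20, 19 and 5 of 25 losartan cells reached 2 genes of these lists. Many cells count for more than 1 list: 32 of 51 thinned uninjured cells reached 2 or more of the 4 lists. At full depth 48 of 52 uninjured and 21 of 25 losartan cells did. The counts are therefore not numbers of separate arterial, venous and capillary cells. Losartan leukocytes thinned in the same way reached the venous list in 25% and the capillary list in 15.4%, above the endothelial 5 and 3 of 25. Saline leukocytes reached them in 14.3% and 10.9%, below the endothelial 2 and 3 of 11. Leukocytes of the saline and losartan libraries reached the arterial list in 0% and 0% and the lymphatic list in 0.843% and 0.853%. Whether the thinned venous and capillary counts of the losartan cells are background was not tested.

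Cells with 3 or more of 7 lymphatic genes (Prox1, Lyve1, Pdpn, Flt4, Ccl21a, Mmrn1 and Reln) numbered 8 uninjured, 2 saline and 1 losartan. In the uninjured library these 8 cells held all 424 UMIs of Ccl21a, the chemokine by which lymphatic vessels attract dendritic cells, all 67 of the hyaluronan receptor Lyve1 and all 108 of Mmrn1. They held 26 of the 27 UMIs of Prox1, the transcription factor that sets lymphatic identity, and 0 UMIs of Selp, Sele or Flt1. Ccl21a, Lyve1, Mmrn1 and Prox1 are among the 7 genes that picked the cells, so these counts follow largely from the choice. Of genes outside the 7, the 8 cells held 33 UMIs of Nts, 49 of Fgl2 and 12 of Sned1. The other 44 uninjured cells held 0, 1 and 66. The marker rule thus took a small lymphatic group with the blood vessel cells. Ccl21a, at 1162 CPM in uninjured, 212 in saline and 0 in losartan cells, follows those cells. Without the lymphatic cells, Lyve1 and Mmrn1 were no longer lower in the losartan library. Both had 0 UMIs in the other 44 uninjured cells, so this result was fixed by the choice. Fewer cells of a type and less RNA per cell cannot be told apart in summed values.

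Across all members of the rule, 457 of 2744 measured genes (16.7%) were at least 2-fold higher and 651 (23.7%) at least 2-fold lower in the saline than in the uninjured library. Between losartan and saline, 344 of 2507 (13.7%) were higher and 318 (12.7%) lower. Fold calls are made on CPM + 50, and a gene is measured if it reaches 100 CPM in 1 library and has a UMI in at least 5 cells of the pair. Since most of those UMIs came from barcodes with stromal or epithelial genes, the genes are described in the marker-rich cells, where 3 comparisons share their libraries with each other. Saline against uninjured gave 383 genes higher (13.9% of 2750) and 503 lower (18.3%). Losartan against saline gave 590 higher (20.6% of 2871) and 428 lower (14.9%). Losartan against uninjured, a comparison added after the data were seen because both libraries are deep, gave 205 higher (7.75% of 2645) and 311 lower (11.8%).

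The named genes of the saline comparisons were mostly low in count. Against the uninjured cells the 10 lowest genes in saline cells were the matrix gene Mgp, the selectins Sele and Selp, the growth-factor binding protein Igfbp4, the cytokine receptor subunits Il6st and Osmr, Emp1, Marc2, Bcr and the protease Adamts9. Adamts9 stood at 2424 CPM in uninjured, 266 in saline and 420.0 in losartan cells (9.13-fold lower in saline, 4.94 to 19.1), and Emp1 at 2223 CPM in uninjured, 212 in saline and 547 in losartan cells (10.5-fold lower, 5.29 to 24.3). Igfbp4, with 196 uninjured UMIs, had 0 in saline (at least 6.75-fold lower at a floor of 3 counts). The 10 highest (Atp6v1b2, Ndufaf2, Rab11fip2, Mgll, Por, Cul4a, Nxn, Crbn, Galnt18 and Cdk19) rested on 5 to 18 saline UMIs each. Losartan cells were higher than saline cells in Phlda3, Procr, Taldo1 (a pentose phosphate enzyme), the integrin subunit Itgav, Tinagl1, Atp5a1, Atp5d, Atp2a2, Eif1a and Hif1a, each with 0 or 1 UMI in the saline cells. They were lower in Mgll, Galnt18, Fry, Rab11fip2, Zbtb20, AY036118, Nxn, Atp6v1b2, Baz2b and Glul. Of these Fry had 474, 505 and 74.8 CPM and Zbtb20 1066, 1699 and 420.0 CPM in the uninjured, saline and losartan libraries. Between losartan and uninjured cells, the 10 highest genes were Phlda3, Mdm2, Procr, Esd, Ccng1, Dcxr, Cdkn1a, Ei24, Tnfrsf12a and Sncg, and the 10 lowest Ccl21a, Iigp1, Sparcl1, Sele, Mgp, Cp, Slfn5, Prex2, Ebf1 and Aqp1. Ceruloplasmin (Cp) had 373, 584 and 5.75 CPM, and the Rac activator Prex2 1204, 372 and 124 CPM. Left out as at least 5-fold higher in another class of the same library were 17 lower genes (largest Apoe, Aldh3a1, Lypd2, Slurp1 and Aqp5) and 3 higher ones (Ecm1, Cstb and Cebpb). The same rule left out 19 lower genes in saline against uninjured cells (largest Aldh3a1, Tkt, Apoe, Lypd2 and Gsta4) and 4 higher ones in losartan against saline cells (Ecm1, S100a16, Jup and Ctsl).

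Of the 26 gene lists, that of p53 targets, the genes that p53 switches on after DNA damage, had the most genes at least 2-fold higher in losartan than uninjured cells. Of the 22 genes on the p53 list, 12 were at least 2-fold higher and 0 lower in losartan than in uninjured marker-rich cells, against 1.83% higher and 2.64% lower of all 14325 genes with a UMI. The list median was 1.17 on the log2 scale over all 22 genes (1.34 with genes at 0 set to their bound), and the median of all genes was 0.08. In saline against uninjured cells 10 of 22 were higher and 0 lower (all genes 5.39% and 6.34%, list median 0.97). Losartan against saline gave 9 higher and 2 lower (all genes 7.7% and 5.57%), with a list median of 0.65, or 0.40 with bounds. The uninjured library enters both injury comparisons and saline enters the last, so these counts are not independent of each other.

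Cdkn1a, which encodes the p21 inhibitor of the cell cycle, had 546 (472 to 627) CPM in uninjured, 1487 (1123 to 1931) in saline and 2368 (2209 to 2535) in losartan cells (95% intervals). It was lowest in the uninjured and highest in the losartan library, 4.34-fold higher (3.71 to 5.09) in losartan and 2.73-fold higher (1.99 to 3.68) in saline than uninjured. Mdm2, the ubiquitin ligase that p53 induces to limit itself, had 60.3 (37.8 to 91.3) CPM in uninjured, 345 (184 to 590.3) in saline and 826 (733 to 927) in losartan cells. The 3 intervals did not overlap, and losartan was 13.7-fold higher (8.87 to 22.2) than uninjured. Bax, a pore former of the mitochondrial death pathway, had 121 CPM in uninjured, 478 in saline and 1073 in losartan cells and was 8.9-fold higher (6.5 to 12.5) in losartan. The saline value of Bax came from 4 cells, and with cells thinned to 1000 UMIs its saline difference had the opposite sign.

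Phlda3, a p53-induced repressor of Akt, separated the injured libraries: 24.7 (11.3 to 46.8) CPM in uninjured, 26.6 (0.672 to 148) in saline and 561 (485 to 645) in losartan cells. The saline value is 1 UMI, and its interval covers the uninjured value. Losartan was 22.7-fold higher (11.7 to 50.5) than uninjured, from 22 of 25 cells. Ccng1 (cyclin G1) had 13.7 CPM in uninjured, 159 in saline and 253 in losartan cells, 18.5-fold higher (7.62 to 58.3) in losartan. Gdf15, a secreted stress cytokine, had 0 uninjured UMIs and 159 and 469 CPM in saline and losartan. Its losartan level was at least 57-fold higher at a floor of 3 counts, but 1 cell held 49.1% of those UMIs. Zmat3, an RNA-binding p53 target, also had 0 uninjured UMIs against 173 CPM in losartan (at least 21-fold higher, 17 cells).

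Trp53inp1 (16.4, 79.7 and 222 CPM in the uninjured, saline and losartan libraries), Eda2r (16.4, 53.1 and 175 CPM) and Ei24 (21.9, 186 and 233 CPM) were 13.5-fold higher, 10.7-fold higher and 10.6-fold higher in losartan than uninjured cells. Aen, a p53-induced nuclease (11, 79.7 and 89.2 CPM), and Sesn2 (2.74, 53.1 and 66.2 CPM) complete the 12. Other targets did not reach 2-fold between losartan and uninjured: Btg2 had 504, 531 and 589.8 CPM, Plk2 274, 690.4 and 331 CPM and Sesn1 93.2, 79.7 and 63.3 CPM. The death receptor Fas had 96, 133 and 28.8 CPM, short of 2-fold on the CPM + 50 scale. Other high genes of the losartan cells outside the list were Procr, Esd, Dcxr, Tnfrsf12a and Sncg. Dcxr, a carbonyl and xylulose reductase, had 0, 372 and 155 CPM, and Esd (esterase D) 63.1, 133 and 567 CPM, 8.99-fold higher (5.82 to 14.5) in losartan.

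The difference was spread over cells. Uninjured cells had a median of 19.1 UMIs of the p53 list per 10000 (0 to 37.7), saline cells 34.3 (5.87 to 212) and losartan cells 69.5 (23.1 to 187). All 25 losartan cells lay above the uninjured median and 22 above the highest uninjured cell, so the 2 sets overlapped in 3 losartan cells. Of the 12 saline cells, 6 lay above the highest uninjured cell and 5 below the uninjured median. Thinned to 1000 UMIs, Cdkn1a had a UMI in 16 of 51 uninjured, 6 of 11 saline and 22 of 25 losartan cells, and Mdm2 in 2, 5 and 13. Depth was highest in the losartan cells, and the thinned shares were also highest in the losartan cells.

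**Figure D2:**
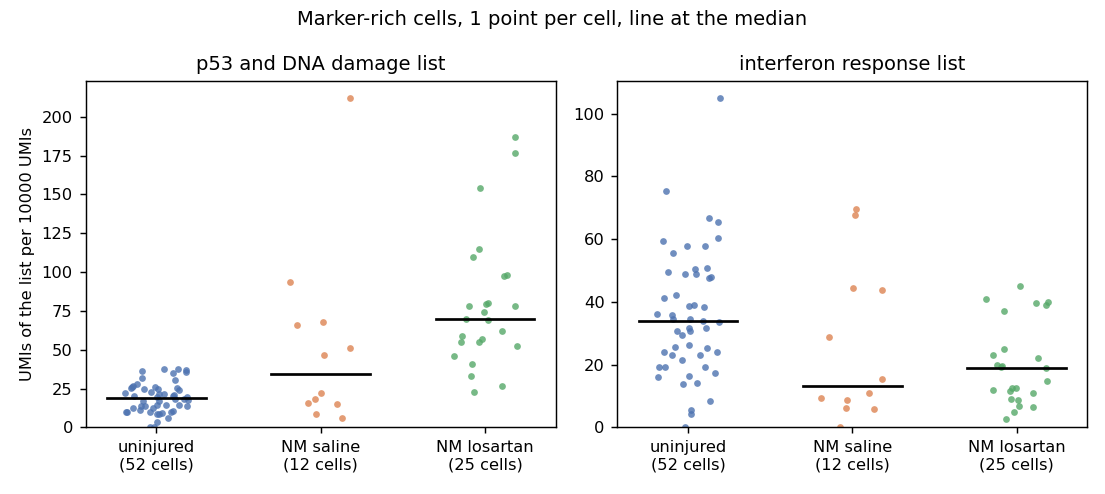
UMIs of the p53 list (left) and of the interferon list (right) per 10000 UMIs, 1 point per marker-rich cell, with a line at each library's median. On the left 22 of 25 losartan cells sit above the highest uninjured cell at 37.7; on the right the uninjured median is highest at 33.9.

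The same list was also higher in other cell classes of the losartan library. Over all 22 genes, losartan against uninjured gave 11 higher and 1 lower in mural, 9 and 0 in stromal and 6 and 1 in epithelial cells. Of measured list genes, 9 of 12 were higher and 1 lower in mural cells (all measured genes 8.63% and 7.66%). Stromal cells had 8 of 9 and 0 (9.78% and 9.10%) and epithelial cells 5 of 9 and 1 (6.93% and 8.46%). Counted in the same way, the endothelial cells had 10 of 13 and 0 (7.75% and 11.8%). The whole-list medians were 1.17 in endothelial, 0.91 in mural, 0.81 in stromal and 0.41 in epithelial cells. Whether the endothelial value differs from the mural or stromal one was not tested, with 1 library each.

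Promoter sequence is shown for 3 genes whose losartan intervals lie wholly above the uninjured ones and whose windows hold the p53 motif. They were thus picked in part by the motif, and other genes of the list with such intervals are not shown. In the 250 bases before the RefSeq start, the p53 half-site (searched on both strands) occurred in 7.13% of 32851 windows of all genes. On the p53 list, 17 of 22 genes were in the table, with 24 windows, and 8 windows held a match: 1 each of Cdkn1a, Mdm2, Ccng1, Bax, Sesn1, Aen, Ei24 and Gadd45a. Sequences are from RefSeq on GRCm38.p6, 5′ to 3′ on the gene's strand, with each half-site in capitals: Cdkn1a (chr17:29090729-29090978, plus strand, matches starting 73 and 51 bases before the start), Mdm2 (chr10:117710759-117711008, minus strand, 186 bases) and Bax (chr7:45466899-45467148, minus strand, 201 bases).
Cdkn1a promoter: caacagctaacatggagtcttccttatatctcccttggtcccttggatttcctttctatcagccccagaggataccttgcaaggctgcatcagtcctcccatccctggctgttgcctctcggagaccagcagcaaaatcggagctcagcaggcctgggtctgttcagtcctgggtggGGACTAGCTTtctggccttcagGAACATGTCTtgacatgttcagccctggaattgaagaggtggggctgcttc
Mdm2 promoter: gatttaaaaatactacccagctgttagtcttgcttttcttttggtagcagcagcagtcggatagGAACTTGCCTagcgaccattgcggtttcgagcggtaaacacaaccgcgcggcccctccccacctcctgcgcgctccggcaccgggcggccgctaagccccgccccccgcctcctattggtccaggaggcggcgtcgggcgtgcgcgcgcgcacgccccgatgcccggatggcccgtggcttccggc
Bax promoter: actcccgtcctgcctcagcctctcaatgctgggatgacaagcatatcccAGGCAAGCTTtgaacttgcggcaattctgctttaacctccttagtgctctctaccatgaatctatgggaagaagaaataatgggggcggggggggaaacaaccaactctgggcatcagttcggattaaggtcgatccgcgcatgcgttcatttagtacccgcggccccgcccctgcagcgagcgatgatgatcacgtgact

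A match is a string of letters in a window and does not show binding in these cells. The second RefSeq window of Cdkn1a and the window of Phlda3 held 0 matches, though Phlda3 had the highest log2 ratio among the list's genes with uninjured UMIs (3.03).

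Many interferon-induced genes were lower in the losartan than in the uninjured cells. Of 20 genes on the interferon list, 0 were higher and 9 at least 2-fold lower in losartan than uninjured cells (all genes 1.83% higher, 2.64% lower), with a list median of -0.93 against 0.08 for all genes. Saline against uninjured gave 0 higher and 5 lower (all genes 5.39% and 6.34%). The list median was -0.78, or -0.23 when genes at 0 are set to their bound. Losartan against saline gave 0 higher and 3 lower (all genes 7.7% and 5.57%, list median -0.17, or -0.39 with bounds).

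Isg15, a ubiquitin-like modifier, had 244 (196 to 300.3) CPM in uninjured, 186 (74.7 to 383) in saline and 46 (26.3 to 74.7) in losartan cells, 5.3-fold lower (3.09 to 9.67) in losartan than uninjured. The interferon-induced GTPases, which act on intracellular pathogens, had larger folds. Irgm1 had 189 CPM in uninjured, 53.1 in saline and 14.4 in losartan cells (13.2-fold lower, 5.37 to 41.8), Gbp2 148, 53.1 and 14.4 CPM and Gbp4 123, 79.7 and 8.63 CPM. Iigp1, a related GTPase outside the list, had 1075 (971 to 1186) CPM in uninjured, 398 (223 to 657) in saline and 8.63 (1.78 to 25.2) in losartan cells, from 29, 5 and 3 cells, 125-fold lower (42.3 to 606) in losartan. Thinned to 1000 UMIs, it was found in 21 of 51 uninjured, 3 of 11 saline and 0 of 25 losartan cells. Slfn5, also interferon-inducible, had 918 CPM in uninjured, 558 in saline and 80.6 in losartan cells (11.4-fold lower, 7.75 to 17.4). The transcription factor Irf1, counted on the NF-kB list, had 828 CPM in uninjured, 558 in saline and 94.9 in losartan cells (8.72-fold lower, 6.08 to 12.9).

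Not every gene of the list was lower. Ifitm3, a membrane protein that blocks virus entry, had 1702 CPM in uninjured, 1752 in saline and 1677 in losartan cells, the same level within its counting intervals, and Bst2 had 387, 212 and 242 CPM. Ifit1, Ifit2, Igtp and Oasl2 made up the rest of the 9 with Isg15, Irgm1, Gbp2, Gbp4 and Stat2, all at 31.6 CPM or less in losartan except Isg15 at 46. Per cell, the list had a median of 33.9 UMIs per 10000 (0 to 105) in uninjured, 13.3 (0 to 69.6) in saline and 19.0 (2.66 to 45.1) in losartan cells. The ranges overlapped, with 19 of 25 losartan cells below the uninjured median. In other classes the list medians of losartan against uninjured lay nearer 0: -0.25 in mural (2 higher, 1 lower of 20), -0.14 in stromal (1 and 2) and -0.08 in epithelial cells (1 and 0). Only 4, 3 and 1 of the 20 genes were measured in these classes, against 8 in endothelial cells. Genes near the floor draw a whole-list median toward 0, so these medians say little. Of all measured genes 8.63% were higher and 7.66% lower in mural, 9.78% and 9.10% in stromal and 6.93% and 8.46% in epithelial cells. That the endothelial value differs from these was not tested.

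Promoters are shown for 2 of these genes, picked because their windows hold the paired GAAA letters that interferon-induced factors bind. GAAA, then any 2 bases, then GAAA, on either strand, occurred in 2.98% of all windows and in 9 of 17 windows of the 15 listed genes in the table, those of Isg15, Ifit1, Ifit3, Stat2, Bst2, Rsad2, Gbp2, Igtp and Irgm1. Of these 9 genes, Bst2, Ifit3 (49.3, 0 and 2.88 CPM) and Rsad2 (49.3, 26.6 and 11.5 CPM) did not reach 2-fold between losartan and uninjured. Capitals mark the motif in Isg15 (chr4:156200819-156201068, minus strand, 3 overlapping matches starting 78, 72 and 66 bases before the start) and Irgm1 (chr11:48871421-48871670, minus strand, 2 overlapping matches at 30 and 24 bases).
Isg15 promoter: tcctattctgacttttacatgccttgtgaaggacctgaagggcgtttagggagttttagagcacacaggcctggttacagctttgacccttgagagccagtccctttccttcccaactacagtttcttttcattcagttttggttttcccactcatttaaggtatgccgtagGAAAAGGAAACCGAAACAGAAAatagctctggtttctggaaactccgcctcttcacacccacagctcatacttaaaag
Irgm1 promoter: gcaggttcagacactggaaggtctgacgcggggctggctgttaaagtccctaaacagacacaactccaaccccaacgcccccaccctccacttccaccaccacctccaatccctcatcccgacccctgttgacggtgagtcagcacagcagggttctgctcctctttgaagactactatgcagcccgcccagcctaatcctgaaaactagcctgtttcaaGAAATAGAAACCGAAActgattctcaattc

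The selectins of venous endothelium, which catch leukocytes from the blood, and von Willebrand factor were lower in both injured libraries. On the venous list, 0 of 15 genes were higher and 6 lower in losartan than uninjured cells (all genes with a UMI 1.83% and 2.64%, list median -0.74). Saline against uninjured had 1 higher and 7 lower (all genes 5.39% and 6.34%, list median -0.91, or -0.48 with bounds). Against saline, losartan had 3 higher and 2 lower (all genes with a UMI 7.7% and 5.57%). Of the 7 measured venous genes 1 was higher and 2 lower, against 20.6% and 14.9% of all measured genes. The whole-list median was 0.30 and becomes -0.50 with bounds, so its sign depends on genes at 0 in saline. P-selectin (Selp) had 1889 (1750.5 to 2035) CPM in uninjured, 106 (28.9 to 272) in saline and 259 (208 to 318) in losartan cells, 7.3-fold lower (5.85 to 9.19) in losartan. E-selectin (Sele) had 724 (639 to 817) CPM in uninjured, 0 (0 to 98) in saline and 46 (26.3 to 74.7) in losartan cells, 15.7-fold lower (9.5 to 27.9) in losartan and at least 9.09-fold lower in saline at a floor of 3 counts. Von Willebrand factor (Vwf), which tethers platelets, had 233 CPM in uninjured, 0 in saline and 28.8 in losartan cells (8.1-fold lower in losartan, 4.2 to 17.5, at least 2.93-fold lower in saline).

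Selp came from 16 uninjured, 1 saline and 13 losartan cells, so a UMI was found in many losartan cells but with few UMIs in each. Thinned to 1000 UMIs, it was found in 13 of 51 uninjured cells with 66 UMIs and in 4 of 25 losartan cells with 7 UMIs. The cytokine receptor subunits Il6st (672, 26.6 and 124 CPM) and Csf2rb (217, 159 and 11.5 CPM) and the secreted Lrg1 (378, 106 and 60.4 CPM) were also lower in losartan. The venous identity factor Nr2f2 (206, 133 and 129 CPM) and the chemokine-binding receptor Ackr1 (129, 0 and 92.1 CPM) did not reach 2-fold.

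Of the 24 adhesion and chemokine genes, 3 were higher and 4 lower in losartan than uninjured cells (all genes with a UMI 1.83% and 2.64%), with a list median of 0.00. Among its 9 measured genes 1 was higher and 4 lower, against 7.75% and 11.8% of all measured genes. Sele, Selp, Il6 (225, 0 and 11.5 CPM) and the sialomucin Podxl (339.9, 53.1 and 86.3 CPM) were lower. The adhesion molecule Mcam (79.5, 159 and 377 CPM, 4.74-fold higher, 3.15 to 7.35) and the chemokines Ccl2 (0, 26.6 and 74.8 CPM) and Cxcl2 (0, 8550.2 and 66.2 CPM) were higher. Ccl2 and Cxcl2 had 0 uninjured UMIs, and in losartan mural cells they stood at 1120.1 and 1058 CPM, far above the endothelial level. The saline value of Cxcl2, a neutrophil gene as well, moved with the 2 saline cells that carry leukocyte genes: its log2 ratio to uninjured was 7.43 with them and 2.42 without them.

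The ligands of leukocyte integrins differed less. Icam1 had 321, 239 and 155 CPM, Icam2 129, 53.1 and 135 CPM and Vcam1 57.6, 0 and 60.4 CPM in the uninjured, saline and losartan libraries. Ackr1, Cd44 (38.4, 611 and 124 CPM), Cx3cl1 (30.2, 106 and 69 CPM), Cxcl1 (35.6, 26.6 and 57.5 CPM), Jam3 (57.6, 26.6 and 34.5 CPM), Csf3 (38.4, 159 and 0 CPM) and Cxcl16 (13.7, 26.6 and 31.6 CPM) did not reach 2-fold between losartan and uninjured. Ccl7, Cxcl9, Cxcl10, Chst4, Selplg and Glycam1 were at most 2.88 CPM in the uninjured and losartan cells. For the whole list, saline against uninjured gave 4 higher and 6 lower (all genes with a UMI 5.39% and 6.34%). Losartan against saline gave 3 higher and 4 lower (all genes with a UMI 7.7% and 5.57%).

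Sele had the lowest log2 ratio of the adhesion list between losartan and uninjured cells on the CPM + 50 scale (-3.01), and its promoter (chr1:164047984-164048233, plus strand) is shown for that reason. Capitals mark AGGAAG, the core letters bound by ETS factors such as Erg and Fli1, found on either strand in 29.5% of all windows and here at 65 bases before the start. The NF-kB letters, GGG, any 2 bases and TTTCC, occurred in 1.41% of windows and not in this one, which says nothing about the factor.
Sele promoter: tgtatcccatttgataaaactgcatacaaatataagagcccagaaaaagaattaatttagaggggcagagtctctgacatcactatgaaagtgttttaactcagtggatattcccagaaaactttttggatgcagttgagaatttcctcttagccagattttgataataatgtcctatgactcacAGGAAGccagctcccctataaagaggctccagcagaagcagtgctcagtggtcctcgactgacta

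**Figure D3:**
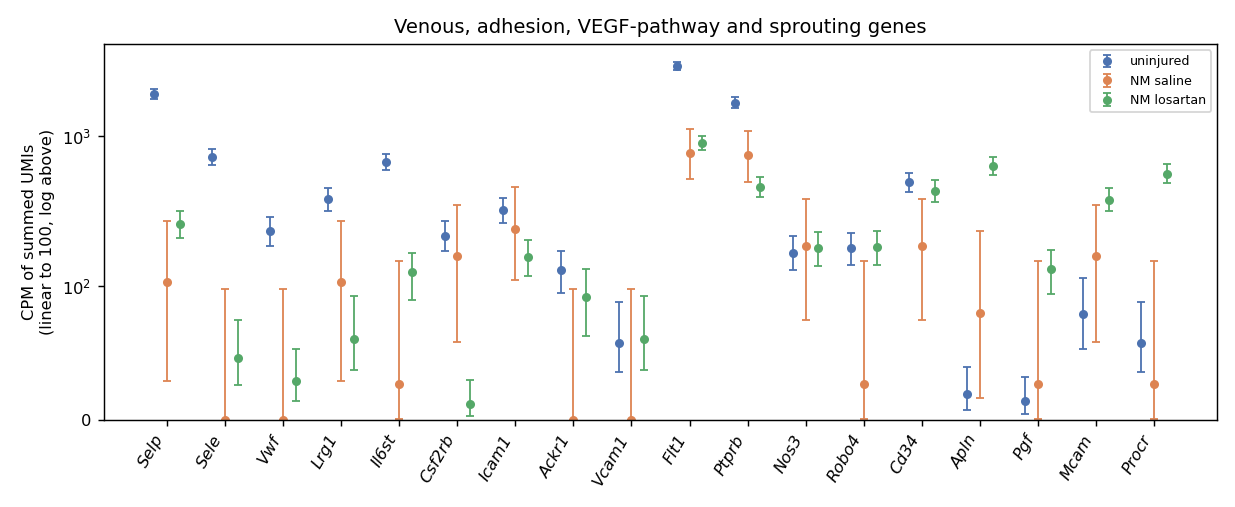
Levels of 18 venous, adhesion, VEGF-pathway and sprouting genes in the summed marker-rich cells of each library (CPM, linear to 100 and log above; points with exact Poisson 95% intervals). Selp, Sele, Vwf and Flt1 are highest in the uninjured cells, Nos3 and Robo4 are level between uninjured and losartan, and Apln, Mcam and Procr are highest in losartan.

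Several sprouting genes were higher in losartan cells than in uninjured ones, while the VEGF receptor Flt1 was lower. On the tip cell list, 7 of 18 genes were higher and 1 lower (all genes with a UMI 1.83% and 2.64%, list median 0.43). Saline against uninjured had 3 higher and 3 lower (all genes with a UMI 5.39% and 6.34%, measured genes 13.9% and 18.3%). Apln, the apelin peptide made by tip cells, had 19.2 (7.72 to 39.5) CPM in uninjured, 79.7 (16.4 to 233) in saline and 630.0 (549 to 719) in losartan cells, 32.8-fold higher (15.7 to 82.6) in losartan. It came from 9 of 25 losartan cells and 1 cell held 42% of its UMIs. Placental growth factor (Pgf: 13.7, 26.6 and 129 CPM), the urokinase receptor Plaur (115, 292 and 371 CPM), adrenomedullin (Adm: 16.4, 186 and 104 CPM), Tnfrsf12a (52.1, 26.6 and 308 CPM), Inhbb (24.7, 0 and 132 CPM) and Mcam were the other 6. With each cell given equal weight, Pgf, Plaur and Adm were under 2-fold, and with cells thinned to 1000 UMIs Plaur (log2 ratio 0.20), Mcam (0.96) and Adm were. The tip cell genes Angpt2 (79.5, 79.7 and 121 CPM) and Pdgfb (164, 0 and 129 CPM) did not reach 2-fold, and Rgcc was the gene that was lower (170.0, 770.0 and 34.5 CPM).

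Flt1, which binds VEGF and limits its signal, had 2925 (2752 to 3106) CPM in uninjured, 770.0 (516 to 1106) in saline and 898 (801 to 1003) in losartan cells. Both injured libraries were lower, by 3.26-fold in losartan and 3.8-fold in saline. Ptprb (1667, 743 and 457 CPM), Adgrl4 (973, 266 and 282 CPM) and the neuropilins Nrp1 (381, 79.7 and 144 CPM) and Nrp2 (430.4, 186 and 118 CPM) were also lower in losartan. Over the 26 genes of the VEGF, angiopoietin and Notch list 2 were higher (Apln and Pgf) and 5 lower, with a median of -0.26. The shares were 1.83% and 2.64% of all genes with a UMI, and 7.75% and 11.8% of measured genes. The Notch genes Notch1 (354, 159 and 256 CPM), Hes1 (373, 79.7 and 388 CPM) and Dll4 (156, 26.6 and 71.9 CPM) and the vessel genes Robo4 (178, 26.6 and 181 CPM), Tek (206, 79.7 and 118 CPM) and Cd34 (491, 186 and 432 CPM) did not reach 2-fold between losartan and uninjured.

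Ace, the enzyme that makes angiotensin II, was found in the endothelial cells, and the receptors of angiotensin were not. Ace had 60.3 (37.8 to 91.3) CPM in uninjured, 79.7 (16.4 to 233) in saline and 31.6 (15.8 to 56.6) in losartan cells, from 14, 2 and 7 cells, and the 3 intervals overlapped. In other classes it was at most 4.31 CPM (losartan mural cells, 3 UMIs). Agtr1a, the receptor that losartan blocks, had 0 UMIs in the endothelial cells of all 3 libraries, as had its second mouse copy Agtr1b, Agtr2 and Mas1. The exact 95% interval of 0 UMIs reaches 10.1 CPM in the uninjured, 98 in the saline and 10.6 in the losartan cells. In mural cells Agtr1a stood at 31.9 CPM (19.5 to 49.3) in the uninjured library (20 UMIs in 17 of 103 cells), 0 in 10 saline cells and 15.8 CPM (7.89 to 28.3) in losartan (11 UMIs in 7 of 47 cells). The type 2 receptor Agtr2 was found in stromal cells, at 100 CPM (90.8 to 109.9), 42.2 CPM (35.6 to 49.8) and 67.3 CPM (63.1 to 71.7).

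Over the 25 angiotensin and vasoactive genes, 2 were higher and 2 lower in losartan than uninjured cells (median -0.15). The shares were 1.83% and 2.64% of all genes with a UMI, and 7.75% and 11.8% of measured genes. Adm and Ddah1, which breaks down an inhibitor of nitric oxide synthase (49.3, 26.6 and 187 CPM, 3.79-fold higher, 2.22 to 6.79), were higher. The endothelin-converting enzyme Ece1 (600.4 CPM in uninjured, 239 in saline and 193 in losartan cells, 3.11-fold lower, 2.36 to 4.16) and the bradykinin receptor Bdkrb2 (71.3, 0 and 8.63 CPM) were lower. Nitric oxide synthase Nos3 was level at 167, 186 and 178 CPM. Endothelin 1 (Edn1) had 101, 505 and 193 CPM, with the saline value from 2 cells. The adrenomedullin receptor parts Calcrl (334, 159 and 149.6 CPM) and Ramp2 (661, 345 and 388 CPM), the endothelin receptor Ednrb (87.7, 79.7 and 34.5 CPM), Agtrap (35.6, 79.7 and 11.5 CPM), Ddah2 (63.1, 26.6 and 34.5 CPM) and Npr1 (35.6, 26.6 and 40.3 CPM) did not reach 2-fold. Enpep, Anpep, Bdkrb1, Gucy1a1, Npr3, Ramp3 and Ptgis were at most 32.9 CPM in the uninjured and losartan cells.

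Several transcription factors and matrix genes of resting vessels were lower in losartan. Of 24 endothelial transcription factors 0 were higher and 9 lower (all genes with a UMI 1.83% and 2.64%, list median -0.81). Ebf1 had 1590.1 CPM in uninjured, 478 in saline and 198 in losartan cells (8.01-fold lower, 6.23 to 10.4), Tshz2 1135, 1195 and 167 CPM, the hypoxia factor Epas1 661, 319 and 132 CPM and the arterial factor Sox17 299, 186 and 74.8 CPM. Erg (288, 133 and 196 CPM), Ets1 (469, 345 and 359.6 CPM) and Tcf4 (1815, 1301 and 1009.8 CPM) did not reach 2-fold. The water channel Aqp1, a capillary list gene, had 1124 CPM in uninjured, 717 in saline and 132 in losartan cells (8.49-fold lower, 6.25 to 11.8). The saline value of Aqp1 came from 2 cells.

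Over 29 basement membrane and matrix genes 2 were higher and 9 lower in losartan than uninjured cells (all genes with a UMI 1.83% and 2.64%, list median -0.23). The list was lower in saline, with 1 gene higher and 17 lower than uninjured (all genes 5.39% and 6.34%, median -1.04), and losartan against saline had 11 higher and 4 lower (all genes 7.7% and 5.57%, median 0.88). Without the 2 saline cells that carry leukocyte genes, saline had 0 higher and 13 lower. Sparcl1, a matricellular protein, had 1686 (1555 to 1825) CPM in uninjured, 770.0 (516 to 1106) in saline and 60.4 (37.4 to 92.3) in losartan cells (27.9-fold lower in losartan, 18.1 to 45.4), and a UMI in 40, 3 and 6 cells. Mgp, an inhibitor of calcification and of BMP signals, had 1359.8 CPM in uninjured, 26.6 in saline and 135 in losartan cells (10.1-fold lower, 7.45 to 13.9). Timp3 (1272, 664 and 256 CPM), Igfbp7 (3380.3, 1275 and 1096 CPM) and Col15a1 (302, 0 and 43.2 CPM) were lower too. Fibronectin (Fn1: 52.1, 0 and 279 CPM) and Col18a1 (107, 26.6 and 379.7 CPM) were higher, Fn1 no longer by 2-fold without the deepest cell of each library, while the collagen IV chains Col4a1 (642, 345 and 748 CPM) and Col4a2 (455, 186 and 414 CPM) did not reach 2-fold. In the BMP and TGF-beta list 0 of 23 were higher and 5 lower, among them the BMP target genes Id1 (949, 584 and 365 CPM) and Id3 (866, 425 and 242 CPM) and the receptor Bmpr2 (938, 558 and 351 CPM).

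On the shear stress and anticoagulant list 4 of 19 were higher and 5 lower in losartan than uninjured cells. The shares were 1.83% and 2.64% of all genes with a UMI, and 7.75% and 11.8% of measured genes. The protein C receptor Procr had 57.6 (35.6 to 88) CPM in uninjured, 26.6 (0.672 to 148) in saline and 561 (485 to 645) in losartan cells, 9.74-fold higher (6.2 to 16.1) in losartan and from 20 of 25 cells. Its partner in that pathway, thrombomodulin (Thbd: 206, 106 and 57.5 CPM), was lower, as was Klf4 (1143, 505 and 426 CPM), while Klf2 (1253, 664 and 987 CPM) did not reach 2-fold. On the hypoxia and glycolysis list 5 of 20 genes were higher and 2 lower. Among the higher ones Gapdh had 302, 345 and 969 CPM, Pkm 173, 425 and 621 CPM and Pgk1 65.8, 53.1 and 325 CPM. Over the measured genes the list median was 0.49, but -0.37 with cells thinned to 1000 UMIs. The ferritin light chain Ftl1 had 669, 1806 and 1723 CPM, and 5 of 15 oxidative stress genes were higher and 0 lower. Of 20 proliferation genes 0 passed 2-fold in either direction, with Mki67 at 5.48, 0 and 0 CPM.

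In the saline cells the capillary, fatty acid and MHC lists had genes higher than in the uninjured cells, the first 2 mostly through 1 cell. The capillary list had 7 of 13 genes higher and 0 lower in saline than uninjured cells (all genes 5.39% and 6.34%, median 1.26), and losartan against saline had 0 higher and 9 lower (all genes 7.7% and 5.57%). Fabp4, a fatty acid carrier of capillary endothelium, had 466, 1673 and 152 CPM, Gpihbp1, which anchors lipoprotein lipase to the capillary wall, 98.7, 478 and 2.88 CPM and Rgcc 170.0, 770.0 and 34.5 CPM in the uninjured, saline and losartan cells. In an alternative chosen after the data were seen, 1 saline cell was left out for each list. One saline cell held 77.4% of that list's saline UMIs, and without it 0 of 13 were higher and 2 lower. Fatty acid handling, which shares Fabp4, Gpihbp1, Cd36 and Tcf15 with it, had 5 of 13 higher and 0 lower in saline, and 1 and 0 without the cell that held 75.7% of its UMIs.

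The MHC list had 6 of 17 higher and 0 lower in saline than uninjured cells (all genes with a UMI 5.39% and 6.34%). Without the 2 saline cells that carry leukocyte genes 5 were higher and 0 lower. B2m, the light chain of MHC class I, had 1448, 4434 and 964 CPM from 9 of 12 saline cells, and H2-D1 636, 1434 and 774 CPM. The class II invariant chain Cd74 (8.22, 611 and 2.88 CPM) came from 3 saline cells and stood at 2116 CPM in saline leukocytes, and the part of leukocyte RNA in it was not tested further. For the other lists, saline against uninjured gave 1 of 26 higher and 10 lower for VEGF, angiopoietin and Notch, 0 of 15 and 8 for caveolae, 1 of 23 and 7 for TGF-beta and BMP, 0 of 18 and 5 for junctions, 0 of 24 and 4 for transcription factors, 0 of 16 and 4 for arterial, 3 of 11 and 3 for lymphatic, 4 of 14 and 2 for NF-kB, 2 of 19 and 5 for immediate early and 7 of 15 and 1 for oxidative stress genes. Of measured genes alone 13.9% were higher and 18.3% lower. The 17 measured transcription factors had 0 higher and 4 lower, so their lower count lies near that share.

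Immediate early genes, which dissociation of tissue can also induce, were lower in losartan: 0 of 19 higher and 10 lower, with a median of -1.08. Egr1 had 1393, 876 and 359.6 CPM, Junb 2018, 1938 and 734 CPM and Fos 3238, 1009 and 1502 CPM. Losartan mural and epithelial cells had 5 and 6 of the 19 lower and stromal cells 1, with 0, 0 and 2 higher. Of the remaining lists in losartan against uninjured cells, arterial genes had 0 of 16 higher and 4 lower, capillary 0 of 13 and 5, lymphatic 0 of 11 and 8, NF-kB 1 of 14 and 4, junctions 0 of 18 and 2, and caveolae 0 of 15 and 4. The mesenchymal list had 3 of 18 higher and 0 lower, among them Acta2 and Tagln, with 95.2% of Acta2 and 93.9% of Tagln UMIs in 1 cell. Fatty acid handling had 0 of 13 higher and 2 lower, MHC 0 of 17 and 1, circadian 0 of 12 and 2, and endoplasmic reticulum stress 0 of 14 and 0. All genes with a UMI (1.83% higher, 2.64% lower) include many near 0 that cannot pass 2-fold on the CPM + 50 scale, and among measured genes alone the shares were 7.75% and 11.8%.

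**Figure D4:**
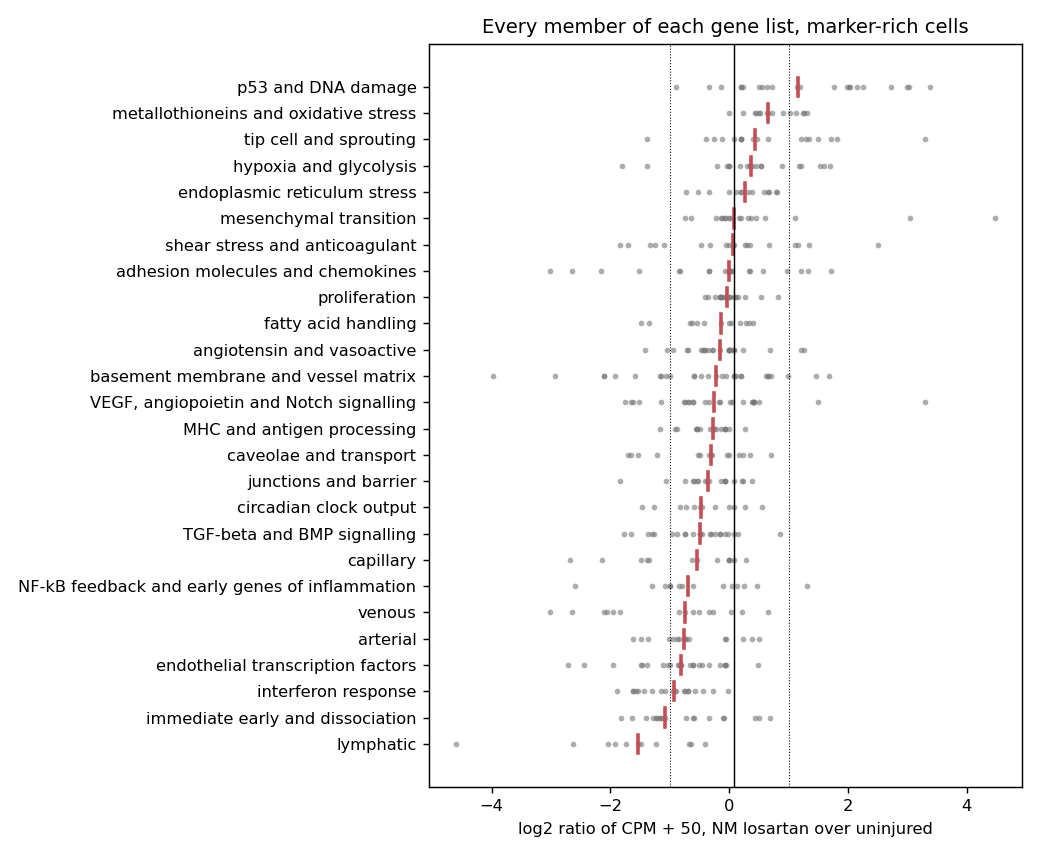
Log2 ratio of CPM + 50 (losartan over uninjured, marker-rich cells) for every member of each gene list, 1 grey point per gene, with a red bar at the list median, a solid line at the median of all genes with a UMI (0.08) and dotted lines at 2-fold. The p53 list lies highest (median 1.17), and the lymphatic (-1.54), immediate early (-1.08) and interferon (-0.93) lists lie lowest.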

How the data were processed

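Single cells from cornea and limbus were measured in 3 libraries of 1 mouse each. The authors deposited whole UMI counts for 32285 genes in each barcode. Per the file headers, Cell Ranger 8.0.0 made the matrices, and per the submitters' processing notes the genome was GRCm 38. The sources used here do not say whether introns were counted, which annotation was used or whether doublets had been taken out. Barcodes with 500 genes and at most 20% mitochondrial UMIs were kept (12567, 6134 and 5162 of 13270, 6814 and 5887). No doublets were removed in the main analysis; a simulated-doublet score, at 0.8% per 1000 barcodes, marked 4 of the 121 members and leaving these out was an alternative.

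UMIs were summed over cells, divided by their total to CPM and compared as log2 ratios of CPM + 50. CPM carry exact Poisson, ratios exact conditional binomial and shares exact Clopper-Pearson 95% intervals, all for counting error only. Folds against 0 use a floor of 3 counts over the summed cells. With 1 library per group there is no test and no p-value. Cell classes for comparison used the marker rule for mural cells, keratin level, 4 of 8 leukocyte and 3 of 7 stromal markers. Fold calls were checked on simulated counts.

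The members, 26 gene lists and 11 marker lists were chosen with earlier results of these data known. Named genes were, per comparison, the 10 highest and 10 lowest log2 ratios among measured genes with UMIs in 5 cells of the higher library and no cell over 25%, leaving out genes of the rule, mitochondrial, ribosomal and unnamed genes and those 5-fold higher in another class, plus members of the lists. Names were used as in the files, and some list members are not reported here. Promoter windows are RefSeq, GRCm38.p6, and Cdh5 and Plvap were not in that table. Alternatives changed 1 choice at a time: cell filters, marker number, depth, pseudocount, level filter, scaling, cell weights and single cells. Software was Python 3.11.15 with numpy 2.4.6, scipy 1.17.1, pandas 2.3.3, scikit-learn 1.9.0 and matplotlib 3.10.9.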

Additional observations from a re-analysis of the deposited data

How the results depend on the processing

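No paired analysis was possible because each group has 1 library. The shares depended on the marker rule. Saline members were 0.114% of barcodes with 4 endothelial markers, 0.114% at 20 rule-gene UMIs per 10000 and 0.0835% with barcodes thinned to 1000 UMIs. Losartan members were 0.426%, 0.407% and 0.317% under these, and 0.484% as marker-rich cells. Among all members, the 1108 genes past 2-fold for saline against uninjured were 409 with a pseudocount of 200 CPM. The 662 genes for losartan against saline were 220 with it, 1042 with a keratin limit of 30 per 10000 and 1018 in marker-rich cells. In marker-rich cells a pseudocount of 200 CPM left 207 of 886 genes for saline against uninjured, 205 of 1018 for losartan against saline and 135 of 516 for losartan against uninjured. Without a level filter the first 2 counts were 1502 and 1771. Thinning to 1000 UMIs gave 624 for losartan against saline and 871 for losartan against uninjured. Of all calls the higher genes made up 52.0% for losartan against saline over all members, 62.5% with 4 markers and 68.8% thinned. In marker-rich cells they were 43.2% for saline against uninjured (28.5% thinned), 58.0% for losartan against saline (69.2% thinned) and 39.7% for losartan against uninjured (23% with 200 CPM).

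For losartan against uninjured, the p53, interferon and venous list medians over measured genes kept their sign under every alternative run. No sign change was found for the lymphatic median either, but it depends on cells with 3 or more lymphatic markers (8 uninjured, 1 losartan). Without those cells Ccl21a, Lyve1, Mmrn1 and Reln had 0 uninjured UMIs, so that alternative cannot check the sign of the lymphatic median. Medians changed sign when thinned for the MHC (-0.50 to 0.14), matrix (-0.12 to 0.12) and glycolysis lists (0.49 to -0.37), and unfiltered for the adhesion list (-0.85 to 0.0037). Those of the angiotensin (0.07) and shear stress lists (0.01) lay near 0 and changed sign under 4 and 5 alternatives. Il6, Podxl, Klf4 and Bmpr2 were under 2-fold when thinned, and Ddah1 and Tagln without the deepest cells. The p53 median was 2.03, and 2.73, 0.96 and 1.165 with pseudocounts of 20 and 200 CPM and without a filter. The interferon median was -1.55, and -0.67 with 200 CPM and -0.93 unfiltered. The venous median was -1.96, with -0.98 and -0.74. The lymphatic median was -1.98, with -2.73 at 20 CPM and -0.90 at 200 CPM. Signs of single log2 ratios reversed for Bax (-0.086), Adamts1 (0.025) and Bcr (0.42) when thinned (Bax for saline, the others for losartan, against uninjured). They also did for Cul4a with 4 markers (-0.47) and Edn1 at 20 per 10000 (-1.60), both saline against uninjured, and for Lyve1 (0.23) and Mmrn1 (0.16) in losartan against uninjured without cells of 3 lymphatic markers. The cause was not tested. For losartan against uninjured, single genes were followed under each alternative for 128 genes, not for all 516 called. Of these 128, 61 were under 2-fold with 200 CPM, 21 thinned, 16 with equal cell weights and 11 without the deepest cells. Depth limits the saline library most: its 12 cells hold 37660 UMIs, and a gene needs about 100 CPM, or 4 UMIs, to be measured.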

Other observations

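Smooth muscle genes in the losartan endothelial cells came mostly from 1 cell. Acta2 had 393 UMIs in the 25 losartan marker-rich cells, of which 1 cell held 95.2%, and Tagln had 228, with 93.9% in 1 cell. Of 12 clock output genes, 2 were at least 2-fold lower in losartan than uninjured cells and 0 higher (all genes 2.64% and 1.83%): Dbp, a transcription factor with a strong daily rhythm, had 137, 26.6 and 17.3 CPM in the uninjured, saline and losartan cells, and Hlf 90.5, 26.6 and 8.63 CPM.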
